A study of Mus musculus with 9 samples.

Results

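The ATP-binding cassette (ABC) transporters are membrane proteins that use the energy of ATP to move lipids, sterols, drugs, peptides, metal complexes and conjugated metabolites across membranes. They are sorted into subfamilies A to G by sequence: A and G mostly handle lipids and sterols, B and C hold the multidrug pumps together with mitochondrial, lysosomal and bile transporters, D sits in peroxisomes, and E and F lack membrane domains and act on ribosomes. In the ovary they are of interest because steroid-making cells take in, store and export large amounts of cholesterol, and because the drug pumps set how much of a foreign compound reaches follicles.

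The members were the genes of the count table whose symbols are formed as Abc, a subfamily letter from a to g, a number and at most 1 further letter. This gave 49 of 46078 genes, with 16 in subfamily A, 10 in B, 10 in C, 3 in D, 1 in E, 3 in F and 6 in G. The values came from RNA-seq of ovaries from 5 WT and 4 ERβKO mice, 1 library per mouse, all labelled untreated, and the comparison asks which ovarian genes depend on estrogen receptor β (ERβ, encoded by Esr2), a nuclear receptor of granulosa cells. ERβKO mice lack exon 3 of Esr2 in every tissue. Floxed mice backcrossed on C57BL/6J were crossed with a Rosa26-Cre deleter line, and the heterozygous mice obtained were bred to give ERβKO mice. The WT controls were offspring that carried no Cre. The treatment text of the labels also describes a high-fat or control diet and injections of DPN, an ERβ agonist, or of vehicle, without saying what a given mouse received, so the diet of each mouse is unknown here. The age range stated for all mice of the study runs from juvenile to adult, and the sources used here give no estrous stage for an ovary. The p-values weigh a genotype difference against the spread between libraries of the same genotype, over these 9 libraries. The labels do not tie a mouse to an age or litter, so a difference in these between the genotypes could not be checked.

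Total counts were 12353740 to 16519975 per library in WT and 13088728 to 18717510 in ERβKO ovaries, and the 49 members took 0.190 to 0.314% of them. Whole-gene Esr2 measured 12.4 to 23.9 FPKM (fragments scaled to transcript length and to library size) across the WT and 10.5 to 23.7 FPKM across the ERβKO ovaries (log2 fold change −0.02, SE 0.24). Since the count covers the exons that remain, it does not check the deletion. On the first principal component of all tested genes (35.9% of the variance), WT 2 lay between the other WT and the ERβKO libraries. Markers of granulosa cells (10 genes) summed to 1739.6 to 2249 CPM (counts scaled to library size) in WT and 2298 to 2965 CPM in ERβKO ovaries, and markers of theca cells (8 genes) to 2091 to 2782 and 3039.98 to 5406 CPM, in each case without overlap. Among the granulosa markers, 9 of 10 had log2 fold changes above 0 (median 0.61), with 2 called higher by edgeR and 4 by DESeq2. Of all genes tested, taken singly, edgeR called 1.72% and DESeq2 4.8%, and the CPM of the genotypes did not overlap for 7.96%. The theca markers did not move together: of 7 tested, 4 had log2 fold changes above 0 and 3 below (median 0.03), with Aldh1a1 called higher by edgeR and Col4a1 called lower by DESeq2. The sums of 10 luteal markers overlapped, at 8599 to 19622 CPM in WT and 6789 to 11267 CPM in ERβKO ovaries (9 of 10 below 0 in log2 fold change, none called by edgeR and 3 called lower by DESeq2), as did those of stromal, endothelial, mural, macrophage, oocyte and epithelial markers. The 8 adipocyte markers summed to 221 to 418 CPM in WT ovaries and to 1587 CPM in ERβKO 1, against 243 to 750.3 CPM in the other ERβKO ovaries. Each of these luteal, granulosa, theca and adipocyte markers passed 1 FPKM in at least 1 ovary, and the part of cell composition in the results on the transporters was not tested.

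What the family shares is the ATP-binding fold. Its best-known element is the Walker A motif, a glycine-rich loop that ends in a lysine followed by serine or threonine and holds the phosphates of ATP. A search of the translated coding sequences found 2 such motifs in 35 members, 1 in 12 and none with these letters in Abcg3 and Abcg8. The codons of the first motif are shown for 5 members on which the results turn, from the GENCODE coding sequences of GRCm38, 5′ to 3′, with the lysine codon in capitals.
Abca7: ggtcacaacggggctggcAAGaca
Abcc4: ggcccagttggagcaggcAAGtcg
Abcd2: ggtcccaacggttgtgggAAAagc
Abcb1a: ggcaacagtggctgtggaAAAagc
Abcb1b: ggcaacagtggctgtggaAAAagc
The motif lies at coding bases 2512 to 2535 of Abca7 (2167 codons) and 1333 to 1356 of Abcc4 (1325 codons). The Abcb1a and Abcb1b copies were the same in all letters.

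That last pair matters for how the counts are read, because mouse P-glycoprotein is encoded by 2 neighbouring genes. Abcb1a and Abcb1b each have 1276 codons and were identical at 3367 of 3816 aligned coding bases (88.2%). A stretch of 120 coding bases around the first Walker A motif is given here to show how alike they are around this motif. It covers coding bases 1231 to 1350 of Abcb1a and 1240 to 1359 of Abcb1b, with the motif at bases 37 to 60 of the stretch and the 4 bases that differ in capitals.
Abcb1a: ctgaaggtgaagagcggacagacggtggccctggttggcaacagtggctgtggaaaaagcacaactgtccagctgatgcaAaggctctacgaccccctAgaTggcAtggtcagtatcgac
Abcb1b: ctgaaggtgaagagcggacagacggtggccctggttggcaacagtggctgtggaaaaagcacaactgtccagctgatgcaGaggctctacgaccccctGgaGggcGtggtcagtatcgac
Shared words were searched from the transcript with the longest coding sequence of each gene, so its other exon bases were not covered. Of the 50-base words in this Abcb1b transcript, 18.3% also occurred in Abcb1a or Abcb4. Of its 150-base words, the length of 1 read, 5.15% also occurred in Abcb1a. A part of the counts of either gene is therefore uncertain.

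The 2 members with the strongest log2 differences between genotypes, Abca7 and Abcb1b, are shown with the 250 bases upstream of their RefSeq start sites (GRCm38.p6), because ERβ is a factor that binds DNA and its letters could be searched there. The window of Abca7 is chr10:79996244-79996493 and that of Abcb1b is chr5:8797897-8798146, both on the plus strand. None of the motifs searched was found in them, so no letter is in capitals.
Abca7: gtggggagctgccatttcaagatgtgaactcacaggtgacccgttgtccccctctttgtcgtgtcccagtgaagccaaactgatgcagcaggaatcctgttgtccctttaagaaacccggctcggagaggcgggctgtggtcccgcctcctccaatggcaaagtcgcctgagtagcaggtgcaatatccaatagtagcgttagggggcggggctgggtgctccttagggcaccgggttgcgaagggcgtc
Abcb1b: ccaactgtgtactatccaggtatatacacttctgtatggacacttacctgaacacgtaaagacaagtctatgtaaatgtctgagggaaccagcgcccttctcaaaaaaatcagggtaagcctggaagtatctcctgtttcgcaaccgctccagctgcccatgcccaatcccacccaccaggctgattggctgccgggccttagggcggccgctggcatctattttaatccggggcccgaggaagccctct
The windows hold 58.8% G and C with 12 CG pairs in Abca7 and 52.8% with 9 CG pairs in Abcb1b. Searched on both strands were the estrogen receptor palindrome, GGTCA and TGACC with any 3 bases between them, AAGGTCA, an extended nuclear receptor site, and the direct repeat bound by the oxysterol receptors, AGGTCA given 2 times with any 4 bases between. The sites overlap, as each contains GGTCA. Of the 49 members, 38 were matched to 45 windows. The estrogen receptor palindrome occurred in 21 of all 32851 windows (0.0639%) and in none of the members' windows, and the direct repeat in 5 (0.0152%) and likewise in none of theirs. AAGGTCA occurred in 1340 windows (4.08%) and in 3 of the 45 windows of members (6.67%), those of Abcc10, Abcc2 and Abcg2. These are matches of letters in a short window and are not measured binding sites. For Abca7, the paper lists an ERβ-binding site in an exon, a region that was not searched here. From the same RNA-seq data, the paper also lists Abca7 among genes whose ovarian expression appears to depend on ERβ.

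The members spanned a wide range of levels. Averaged over the 9 ovaries, 10 members were above 10 FPKM, 22 between 1 and 10 FPKM, 7 between 0.1 and 1 FPKM, and 10 at or below 0.1 FPKM. In WT ovaries Abcb1b, a P-glycoprotein gene, stood at the top, with 64.9 FPKM in its lowest ovary against 36.7 FPKM in the highest ovary of the next member, Abce1, the ribosome recycling factor. Abce1 was in turn above Abcf1 without overlap. Abcf1, Abca1 and Abcd3 overlapped with their neighbours in this order, Abcd3 lay above Abcc5 and Abcc5 above Abcf2 without overlap, Abcf2 overlapped Abcf3, and Abcf3 lay above Abcg2. From Abcg2 downwards through Abcc1, Abcb1a, Abca2 and Abcb8 each member overlapped the next. This order holds for the deposited FPKM only. In FPKM computed from counts and exon length, averaged over the 9 ovaries, Abcb1b stayed highest (49.5), but Abca1 (34.9) passed Abce1 (31.0). By that measure Abcf2 (25.1) and Abcf3 (19.2) passed Abcd3 (18.6) and Abcc5 (13.4). Abcg2 (4.20) fell below Abcb1a (9.32) and Abcc1 (6.25).

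**Figure D1:**
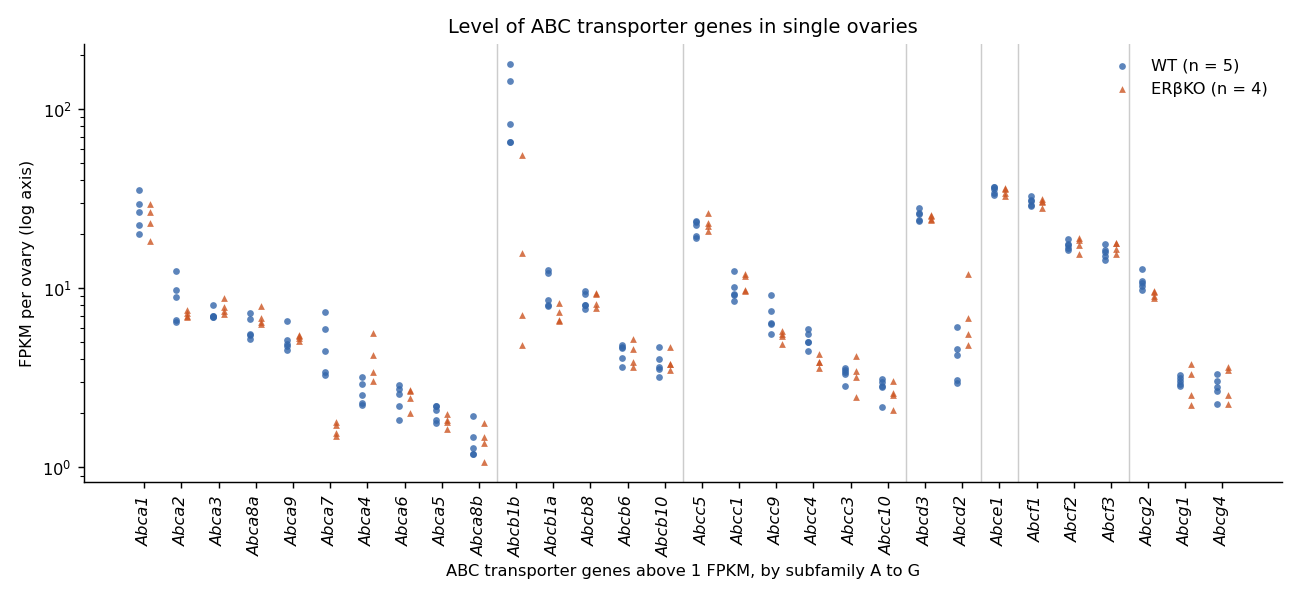
FPKM on a log axis of 30 of the 32 members above 1 FPKM, ordered by subfamily and level, with 1 point per ovary for 5 WT (circles) and 4 ERβKO (triangles) ovaries. Abcb1b spans 4.83 to 178 FPKM, while Abce1 spans 32.5 to 36.7 FPKM, and the genotypes are apart for Abcb1b, Abca7, Abcc4 and Abcg2.

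For 11 members the counts were too low to test. They were Abca12, the ceramide transporter of skin, Abca13, the testis-type genes Abca14, Abca15, Abca16 and Abca17, the elastic tissue gene Abcc6, Abcc8, which encodes the sulfonylurea receptor of pancreatic beta cells, Abcc12, and the sterol exporters of liver and gut, Abcg5 and Abcg8. None had more than 15 counts in an ovary, and their totals over the 9 ovaries were 2 to 79 counts. At this depth 3 counts correspond to 0.160 to 0.243 CPM, so lower levels in either genotype were not detectable.

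Of the 38 members tested among 16722 genes, 2 were called with edgeR (quasi-likelihood test, p-values adjusted by Benjamini-Hochberg). A call needed an adjusted p under 0.05, a log2 fold change of more than 0.4 in size and a mean over 1 FPKM in at least 1 genotype. The members called were Abca7 and Abcc4, and both fell in ERβKO ovaries. The same call was made for 1.72% of all genes tested, and 0.801% were called lower. With DESeq2, which calls 4.8% of all genes, 4 members were called, with Abca4 (higher) and Abcb1b (lower) added. At an unadjusted p under 0.05, 7 members differed (18.4%, against 19.8% of all genes), 2 with higher and 5 with lower values in ERβKO. The CPM of the genotypes did not overlap for 4 members (10.5%), against 7.96% of all genes. The log2 fold changes of the 38 members had a median of −0.04, beside −0.0009 for all genes, and 25 were within 0.2 of 0. By the unadjusted p the share of differing members was thus close to that of all genes.

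**Figure D2:**
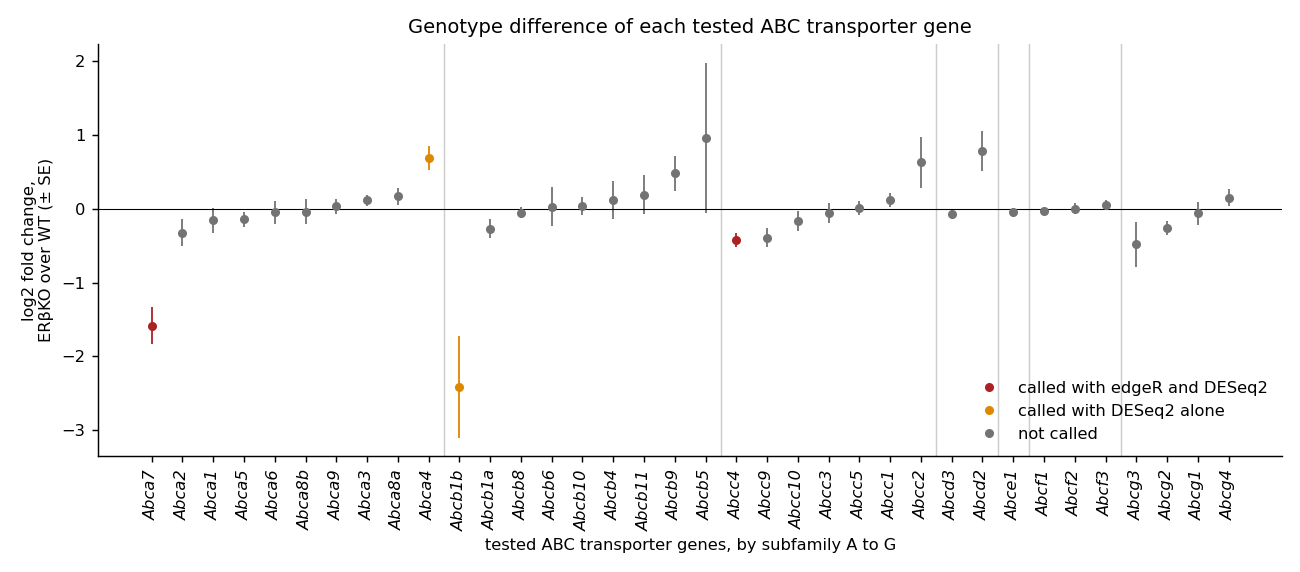
Log2 fold change of ERβKO over WT ovaries for 36 of the 38 members tested, by subfamily, with bars of 1 SE from edgeR's quasi-likelihood fit (4 ERβKO, 5 WT). Abca7 at −1.58 and Abcc4 at −0.42 were called by edgeR and DESeq2, Abca4 at 0.69 and Abcb1b at −2.41 by DESeq2 alone, and most other members lie within 0.2 of 0.

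Subfamily A, which moves phospholipids, sterols and retinoids, held 1 of the 2 members called by edgeR. Abca7 (chromosome 10, 79996494 to 80015572, plus strand) exports phospholipids and is a close relative of Abca1, with 65.7% of aligned coding bases identical. Its level was 5.90, 3.28, 3.39, 4.46 and 7.33 FPKM in WT 1 to 5, and 1.79, 1.5002, 1.73 and 1.55 FPKM in ERβKO 1 to 4. All 4 ERβKO ovaries lay below the lowest WT ovary and close to each other, and WT 5 and WT 1 were the highest. The means were 4.87 ± 1.73 FPKM (SD, n = 5) and 1.64 ± 0.14 FPKM (SD, n = 4), and the counts fell by 1.58 on the log2 scale (SE 0.25, edgeR adjusted p = 0.0151, DESeq2 adjusted p = 5.94e-08). WT 5 and WT 1 were also the ovaries with the highest luteal marker sums, at 19622 and 17075 CPM, whereas ERβKO 3, with a luteal sum of 11267 CPM inside the WT range, had 1.73 FPKM of Abca7. Fewer cells of a type and less RNA per cell cannot be told apart in whole ovaries. Leaving out any 1 library kept the value between −1.70 and −1.37, but the edgeR adjusted p was 0.0649 without ERβKO 2 and 0.0545 without ERβKO 4.

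Abca4 (chromosome 3, 122044443 to 122180123, plus strand) is known as the retinoid flippase of photoreceptors. It was measured at 2.29, 2.52, 2.23, 3.20 and 2.91 FPKM in WT and at 4.21, 5.59, 3.01 and 3.42 FPKM in ERβKO ovaries. ERβKO 2 was the highest and ERβKO 3 lay below WT 4 in FPKM, although the genotypes did not overlap in CPM. Its log2 fold change was 0.69 (SE 0.16), with an adjusted p of 0.0575 in edgeR and of 0.0038 in DESeq2. It passed in edgeR without WT 4 (log2 fold change 0.81, adjusted p = 0.0417) and with no filter on low counts (adjusted p = 0.0444).

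The other expressed genes of the subfamily did not pass. Abca1, which loads cholesterol onto apolipoprotein A-I, had the highest level, with 35.0, 20.1, 29.4, 22.4 and 26.5 FPKM in WT and 29.3, 23.1, 18.4 and 26.5 FPKM in ERβKO. The genotypes overlapped throughout (log2 fold change −0.16, SE 0.17, edgeR adjusted p = 0.661), in contrast to its relative Abca7, although the difference between both genes was not tested. Abca4, with a log2 fold change of 0.69, was nearly as close in sequence, with 65.2% of aligned coding bases identical to Abca1 and 64.0% to Abca7. Abca2, a lipid transporter of endosomes and lysosomes, had 8.84 ± 2.48 FPKM in WT and 7.19 ± 0.30 FPKM in the ERβKO group (log2 fold change −0.32, SE 0.18, edgeR adjusted p = 0.355). Its WT values ran from 6.46 FPKM in WT 3 to 12.5 FPKM in WT 5, the ovary that was also highest for Abca7. Abca3, the lamellar body transporter of lung, had 7.14 ± 0.49 and 7.82 ± 0.73 FPKM (log2 fold change 0.12). The 5 genes Abca8b, Abca8a, Abca9, Abca6 and Abca5 lie side by side on chromosome 11 within 406 kb, from 109932190 to 110337716. Their mean levels were 1.42 to 6.41 FPKM and their log2 fold changes −0.14 to 0.17, with none called.

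Subfamily B joins the drug pumps and bile transporters of the plasma membrane with the transporters of mitochondria and lysosomes. Abcb1b (chromosome 5, 8798147 to 8866315, plus strand) had 142, 64.9, 178, 65.3 and 82.6 FPKM in WT ovaries and 55.2, 4.83, 15.7 and 7.11 FPKM in ERβKO ovaries. Every ERβKO ovary lay below every WT ovary, but ERβKO 1, at 55.2 FPKM, was close to WT 2 and far above the other 3. In counts, the gene had 5631 to 15762 in WT and 488 to 5398 in ERβKO libraries. The log2 fold change was −2.41, the largest in size of any member tested, with an SE of 0.69. Its adjusted p was 0.0967 in edgeR, which is not a call, and 0.0359 in DESeq2, which is. Without ERβKO 1 the log2 fold change was −3.58 (edgeR adjusted p = 0.0125), and with any other library left out it was between −2.55 and −2.07 and was not called.

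ERβKO 1, the ovary with the high Abcb1b value, was also the one with the highest adipocyte marker sum and with the lowest granulosa and theca sums of its genotype (2298 and 3039.98 CPM), but its luteal sum of 6836 CPM was near the lowest of all ovaries. The part of these tissues in the Abcb1b value was not tested.

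The neighbouring gene Abcb1a (8660077 to 8748575), which encodes the P-glycoprotein of the blood-brain barrier and gut, ran at a lower level. It had 12.1, 8.54, 12.6, 8.07 and 7.94 FPKM in WT and 8.28, 6.57, 7.37 and 6.64 FPKM in ERβKO 1 to 4, so that only ERβKO 1 reached the WT range. For this gene the log2 fold change was −0.27 (SE 0.13, edgeR adjusted p = 0.273). In FPKM, Abcb1b was 7.59 to 14.1 times as high as Abcb1a in WT ovaries and 6.67, 0.735, 2.13 and 1.07 times as high in ERβKO 1 to 4. In FPKM, the order of both genes was thus turned in ERβKO 2. In counts, Abcb1b was 6.46, 0.597, 1.90 and 0.908 times Abcb1a in ERβKO 1 to 4, so the order in ERβKO 4 depends on the measure. Abcb4, the third gene of the cluster and the phosphatidylcholine transporter of bile, had 12 to 23 counts per library, with means of 0.187 FPKM (WT) and 0.194 FPKM (ERβKO).

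**Figure D3:**
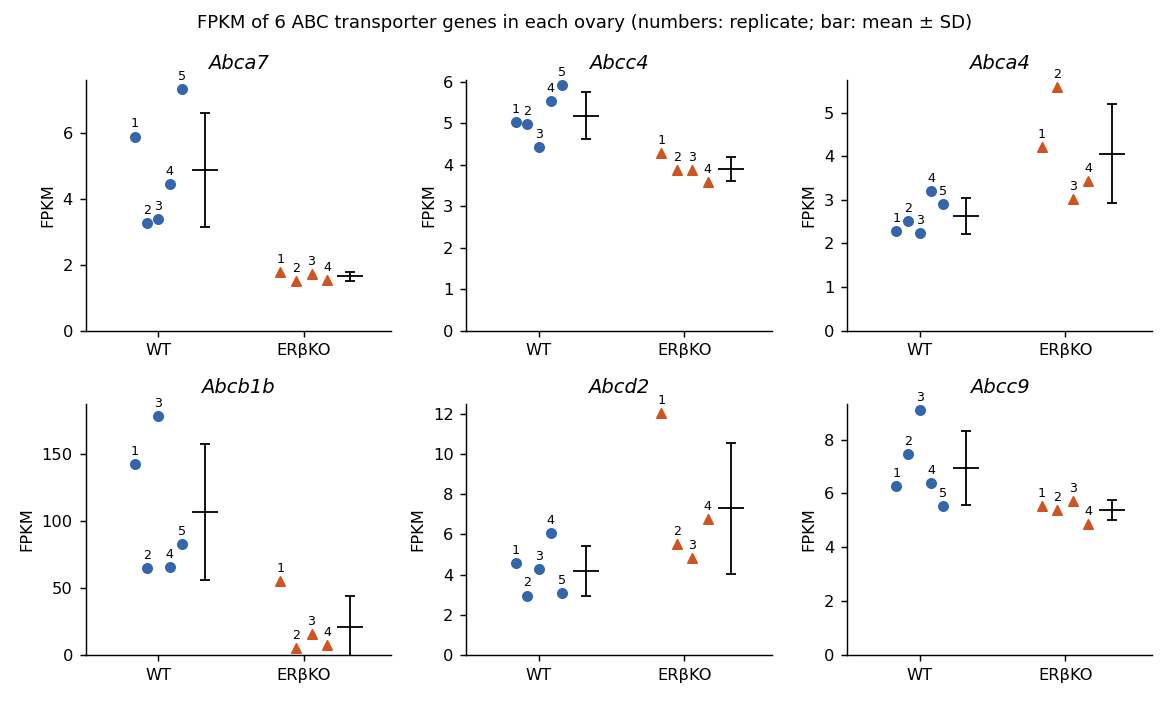
FPKM of 6 members in each ovary, numbered by replicate, with the mean and SD of 5 WT (circles) and 4 ERβKO (triangles) ovaries on linear axes from 0; the lower SD bar of Abcb1b in ERβKO runs past the axis. The genotypes are apart for Abca7, Abcc4 and Abcb1b, and ERβKO 1 is the highest of its genotype for Abcb1b at 55.2 FPKM and Abcd2 at 12.04 FPKM.

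Because of its level, Abcb1b accounted for most of the genotype difference in the summed FPKM of the family. It made up 30.6, 18.3, 35.8, 18.03 and 21.5% of the summed FPKM of the 49 members in WT ovaries and 14.7, 1.57, 5.26 and 2.39% in ERβKO ovaries. The WT ovaries summed to 413 ± 64.2 FPKM (SD, n = 5) and the ERβKO ovaries to 319 ± 37.2 FPKM (SD, n = 4). Without Abcb1b it was 306 ± 14.01 and 299 ± 16.2 FPKM, a difference smaller than either SD. Subfamily B summed to 141 ± 53.0 FPKM in WT and 52.6 ± 24.6 FPKM in ERβKO for all 10 genes, and to 34.4 ± 2.56 and 31.9 ± 1.25 FPKM without Abcb1b.

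**Figure D4:**
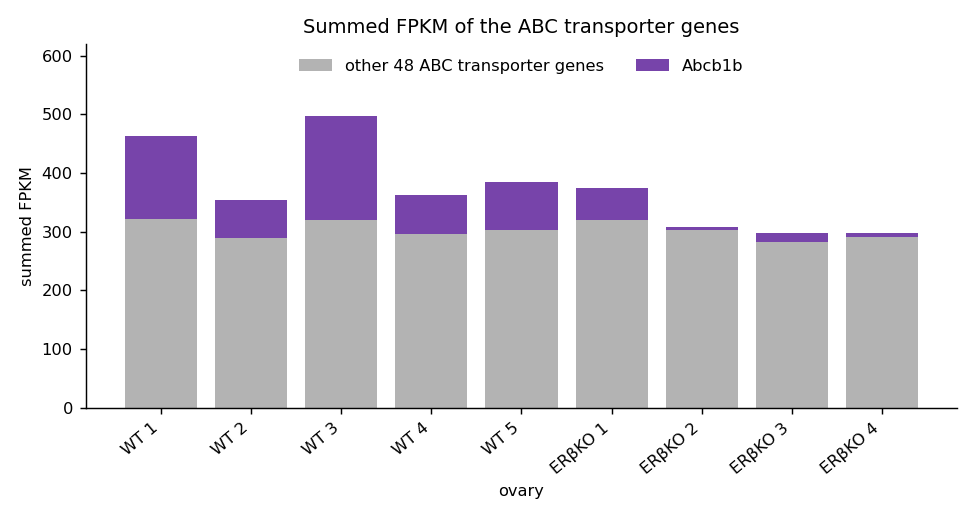
Summed FPKM of the 49 members in each of the 9 ovaries, split into Abcb1b and the other 48 genes. The other genes add up to 282 to 321 FPKM in every ovary, while the share of Abcb1b is 18.03 to 35.8% in WT and 1.57 to 14.7% in ERβKO ovaries.

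Abcb8 and Abcb10 had close levels in both genotypes. They sit in the inner mitochondrial membrane, where Abcb10 serves haem synthesis. Abcb8 had 8.55 ± 0.88 and 8.63 ± 0.79 FPKM and Abcb10 3.81 ± 0.57 and 3.94 ± 0.53 FPKM in WT and ERβKO ovaries (log2 fold changes −0.05 and 0.04, with edgeR adjusted p of 0.747 and 0.896). Abcb9, a peptide transporter of lysosomes, and Abcb11, the bile salt export pump, stayed under 1 FPKM on average. Abcb5 stood out for its spread, with 5 to 47 counts in WT ovaries, 0 counts in ERβKO 1, a count that allows up to 3, and 211 counts (1.91 FPKM) in ERβKO 2. Its log2 fold change of 0.96 (SE 1.02, edgeR adjusted p = 0.643) rested on that ovary, and was −1.15 without it.

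Abcb6, a porphyrin transporter, could not be read in the same way. Its counts were 12 to 26 per library, but its deposited level was 3.63 to 5.18 FPKM, 18.7 times the value that these counts and the exon length give. For the other 37 members tested, this ratio was 0.664 to 2.42. In the annotation, 55.2% of the exon bases of Abcb6 overlap exons of Gm29253 on the same strand. Of the 50-base words in the Abcb6 transcript with the longest coding sequence, 90.3% occur in Gm29253 too. The log2 fold change of the few reads counted for Abcb6 alone was 0.03 (SE 0.26). Partial overlaps with genes on the opposite strand were found for Abcb10 (10.3% of exon bases), Abcb1a (10.1%), Abca3 (9.75%) and, at under 4%, for 8 further members, while Abca7, Abca4, Abcc4 and Abcd2 had none.

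**Figure D5:**
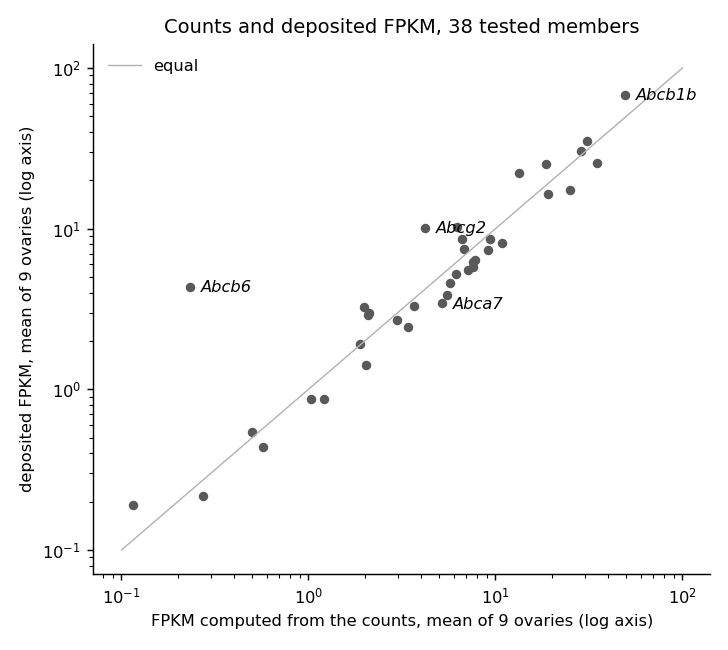
Mean deposited FPKM against the FPKM computed from counts and exon length, over 9 ovaries, for the 38 members tested, on log axes with a line of equality. Abcb6 lies 18.7 times above the line, and the other members between 0.664 and 2.42 times it.

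In subfamily C, Abcc4 (chromosome 14, 118482692 to 118706219, minus strand), an exporter of cyclic nucleotides, prostaglandins and conjugated steroids, fell in ERβKO ovaries. It had 5.03, 4.99, 4.44, 5.53 and 5.93 FPKM in WT and 4.27, 3.87, 3.88 and 3.58 FPKM in ERβKO 1 to 4. All ERβKO values lay below the WT values, although ERβKO 1 and WT 3 differed little. The counts fell by 0.42 on the log2 scale (SE 0.09, edgeR adjusted p = 0.0481, DESeq2 adjusted p = 0.00188). The call was at the threshold: with any 1 library left out the log2 fold change was −0.47 to −0.36, and the adjusted p rose above 0.05 without WT 1 (0.0917), WT 4 (0.0964), WT 5 (0.0884) or any of ERβKO 1 to 4 (0.0639, 0.143, 0.0940 and 0.131). It was also not called by limma on FPKM (adjusted p = 0.0967 and 0.0962 with pseudocounts of 1 and 0.1).

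Abcc9 (chromosome 6, 142587862 to 142702274, minus strand) encodes the sulfonylurea receptor of vascular potassium channels, which are formed with the product of Kcnj8 in pericytes and smooth muscle. Abcc9 had 6.28, 7.45, 9.10, 6.38 and 5.52 FPKM in WT and 5.54, 5.38, 5.73 and 4.85 FPKM in ERβKO 1 to 4. The ranges overlapped through WT 5, and WT 3 was the highest. The log2 fold change was −0.39 (SE 0.13, edgeR adjusted p = 0.133, DESeq2 adjusted p = 0.0677). Kcnj8 had a log2 fold change of −0.05 (SE 0.14). The summed mural markers were 1753 to 2712 CPM in WT and 1671 to 2030.4 CPM in ERβKO ovaries. Of the 8 markers, 1 was called lower by edgeR and 2 by DESeq2, beside 1.72% and 4.8% of all genes called in either direction. The part of mural cells in the Abcc9 values was not tested.

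The remaining tested genes of subfamily C were not called. Abcc5, an exporter of cyclic nucleotides and the highest of the subfamily, had 21.6 ± 2.23 FPKM in WT and 23.2 ± 2.37 FPKM in ERβKO (log2 fold change 0.01, SE 0.09). Abcc1, the glutathione conjugate and leukotriene pump, had 9.89 ± 1.54 and 10.8 ± 1.25 FPKM (log2 fold change 0.12, SE 0.10, edgeR adjusted p = 0.527). Abcc3 and Abcc10 lay at 2.57 to 3.32 FPKM on average in each genotype with log2 fold changes of −0.05 and −0.16. Abcc2, the apical conjugate pump of hepatocytes, had 10 to 82 counts per library and a log2 fold change of 0.63 (SE 0.34, edgeR adjusted p = 0.341).

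Subfamily D transports fatty acids into peroxisomes. Abcd2 (chromosome 15, 91145884 to 91191807, minus strand), which handles very long-chain and unsaturated fatty acids, is abundant in adipose tissue. Its level was 4.56, 2.96, 4.26, 6.05 and 3.06 FPKM in WT and 12.04, 5.54, 4.82 and 6.77 FPKM in ERβKO 1 to 4. ERβKO 1 was far above the others, whose values overlapped with WT 4. With all 9 ovaries the log2 fold change was 0.79 (SE 0.27, edgeR adjusted p = 0.154, DESeq2 adjusted p = 0.0583), and 0.46 without ERβKO 1. That ovary also had the highest adipocyte marker sum. All 8 adipocyte markers had positive log2 fold changes, none called by edgeR and 3 called by DESeq2, which called 4.8% of all genes. The part of adipose tissue was not tested. Abcd3, the main branched-chain and dicarboxylic acid transporter, had 25.6 ± 1.77 and 24.8 ± 0.70 FPKM (log2 fold change −0.07, SE 0.06).

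The cytosolic subfamilies E and F showed a narrow spread. Abce1, which splits ribosomes after termination, had 35.2 ± 1.603 FPKM in WT and 34.6 ± 1.70 FPKM in ERβKO. Abcf1, a partner of translation initiation, had 30.4 ± 1.49 and 30.1 ± 1.44 FPKM, Abcf2 had 17.4 ± 0.94 and 17.6 ± 1.58 FPKM, and Abcf3 had 15.9 ± 1.22 and 16.95 ± 1.19 FPKM. Their log2 fold changes were −0.05, −0.03, 0.00 and 0.06, each with an SE of 0.06 to 0.07.

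In subfamily G, Abcg2 (chromosome 6, 58584523 to 58692869, plus strand), the breast cancer resistance protein that pumps drugs and estrogen sulfates, had 10.98, 10.3, 12.8, 9.78 and 10.7 FPKM in WT and 9.52, 9.62, 8.82 and 9.01 FPKM in ERβKO 1 to 4. The FPKM of the genotypes did not overlap, with ERβKO 2 just under WT 4, whereas the CPM did. For Abcg2 the log2 fold change was −0.26 (SE 0.09, edgeR adjusted p = 0.150, DESeq2 adjusted p = 0.0865). Abcg1, which gives cholesterol to high-density lipoprotein, had 3.04 ± 0.17 and 2.96 ± 0.70 FPKM (log2 fold change −0.06, SE 0.15). Its ERβKO values, from 2.22 FPKM in ERβKO 4 to 3.75 FPKM in ERβKO 2, were spread more widely than the WT values of 2.85 to 3.27 FPKM. Abcg4, its close relative in brain, had 2.81 ± 0.40 and 2.97 ± 0.68 FPKM (log2 fold change 0.15, SE 0.12). Abcg3, a rodent gene related to Abcg2 with 69.2% of aligned coding bases identical, had 0.391 to 1.31 FPKM in WT and 0.573 to 0.825 FPKM in ERβKO ovaries.

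Genes that work beside the transporters were read from the same fit. The lists used here and below were chosen with earlier results of these data known, so their shares of called genes are not a test of a list. Among 20 tested regulators, carriers and conjugating enzymes of foreign compounds, 3 rose in edgeR and none fell (median log2 fold change 0.14), where 1.72% of all genes were called. Sult1a1, a sulfotransferase that prepares substrates for the C and G pumps, rose from 9.93 ± 1.11 to 19.05 ± 1.37 FPKM (log2 fold change 0.94, SE 0.09, edgeR adjusted p = 0.00262). The organic anion carrier Slco2b1 rose by 0.68 (SE 0.13, edgeR adjusted p = 0.0285) and the glutathione transferase Gstm1 by 0.67 (SE 0.15, edgeR adjusted p = 0.0470) on the log2 scale. The granulosa marker sum was higher in the same ovaries, and its part was not tested. Among transporters of such conjugates, Abcc4 was called lower, as given above, and Abcc1, Abcc2, Abcc3, Abcc5 and Abcg2 were not called.

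Of 13 tested genes of peptide loading, 2 rose in edgeR (median log2 fold change 0.23), against 1.72% of all genes called, namely Nlrc5, the transactivator of MHC class I genes (log2 fold change 1.10, SE 0.20, edgeR adjusted p = 0.0226), and the class I gene H2-D1 (log2 fold change 0.50, SE 0.11, edgeR adjusted p = 0.0475). Their pump is formed by Tap1 and Tap2, which are ABC transporters of subfamily B under other symbols and were not among the 49 members. Tap1 had 4.92 ± 0.48 FPKM in WT and 6.10 ± 1.42 FPKM in the knockout (log2 fold change 0.18, SE 0.14), and Tap2 had 7.69 ± 1.37 and 8.16 ± 1.37 FPKM (log2 fold change 0.02, SE 0.12). Cftr, the chloride channel of subfamily C, had 6.65 ± 2.15 and 7.80 ± 0.60 FPKM (log2 fold change 0.19, SE 0.19).

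None of the genes in the other partner lists was called by edgeR. At an unadjusted p under 0.05, which 19.8% of all genes passed, they held 5 of 20 genes of cholesterol and phospholipid trafficking (median log2 fold change of the list 0.15), 3 of 17 of peroxisomal fatty acid oxidation (0.01), 8 of 17 of mitochondrial iron and haem (−0.07) and 6 of 9 of ribosome recycling and initiation (−0.17, with 8 of 9 below 0). DESeq2 called the peroxisomal import receptor Pex5 (log2 fold change −0.41 in edgeR) and the transferrin receptor Tfrc (−0.71), both lower in ERβKO ovaries.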

How the data were processed

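Stranded polyA libraries of whole mouse ovaries were made by the authors, who sequenced 150 bp from each end and aligned with STAR to GRCm38. The deposited counts are raw fragments per gene from featureCounts, and whether strand was used in counting is not given in the sources used here. The deposited FPKM values were computed by the authors with StringTie, per library, and FPKM rows with the same gene ID were summed. StringTie and featureCounts handle reads shared between genes differently, so the values of overlapping genes depend on the tool.

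The 49 members were read from fits on the whole table. Genes were filtered with filterByExpr, normalized by TMM and fitted with the quasi-likelihood test of edgeR 4.0.16 in R 4.3.3, with Benjamini-Hochberg adjustment over 16722 genes. SEs are the log2 fold change divided by the root of its F statistic. Alternatives were DESeq2 1.42.0, its size factors in edgeR, upper-quartile factors, no filter, a minimum of 10 counts per library, the replicate block, limma 3.58.1 on log2(FPKM + 1) and log2(FPKM + 0.1), each library left out, and the libraries numbered below 200. The fit was also run on simulated data with the same spread for every gene, and its outcome is not given here. Such a run does not check members as variable as Abcb1b. The depth of 12353740 to 18717510 counts per library limits members with few counts, and values near 0 cover counting error only. Sequences came from GENCODE transcripts and RefSeq promoters.

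Named with full values were the members called, those with an unadjusted p under 0.05 or a DESeq2 adjusted p under 0.05, and the 3 highest members of each subfamily. Abcb5, Abcb6 and other members outside this rule were named after their values were seen. Members and lists were chosen with earlier results of these data known. The pattern also matches 1 symbol that is not reported here, and 2 of the 49 members enter the counts and sums but are not reported singly.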

Additional observations from a re-analysis of the deposited data

Results flagged for a closer look

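In 76 groups of values (38 members in 5 WT and in 4 ERβKO ovaries), 4 had an ovary far from the others by Dixon's test at its 95% critical value, where chance flags about 1 in 20 groups. Abca3 had 8.01 FPKM in WT 4, beside 6.87 to 6.95 FPKM in the other WT ovaries. Abca9 had 6.55 FPKM in WT 3, beside 4.52 to 5.11 FPKM. Abcb4 had 0.259 FPKM in ERβKO 4, beside 0.166 to 0.180 FPKM in the other ERβKO ovaries. Abcc2 had 0.427 FPKM in ERβKO 2, beside 0.199 to 0.220 FPKM.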

How the results depend on the processing

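The number of all genes called was 287, and was 802 with DESeq2, 155 with the replicate block, 191 with limma on log2(FPKM + 1), 50 in the libraries numbered below 200, and 60 (without ERβKO 2) to 895 (without WT 2) with 1 library left out. The number of members called was 2, and was 4 with DESeq2, 3 with no filter on low counts (Abca4 added), 1 with limma at either pseudocount, 0 in the libraries numbered below 200 and 0 to 2 with 1 library left out, with 0 without ERβKO 2 or ERβKO 4. In the libraries numbered below 200 the adjusted p in edgeR was 0.0536 for Abca7 (log2 fold change −1.32) and 0.178 for Abcc4 (−0.30). This setting left out WT 4 and WT 5 and kept every ERβKO library. The higher numbers thus held WT ovaries only, and their part in the genotype differences was not tested. WT 4 and WT 5 were the highest ovaries for Abcc4 (5.53 and 5.93 FPKM). For Abca7, WT 5 was the highest (7.33 FPKM), while WT 4 (4.46 FPKM) lay below WT 1 (5.90 FPKM).

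The labels do not say that libraries with the same replicate number form pairs. The correlations of deviations between same-numbered libraries were 0.0948, 0.130, −0.0427 and −0.0105, and 0 of 4 ERβKO libraries correlated best with its own number. With so few libraries, these values cannot exclude a pairing. With the replicate block, 2 members were called, Abca7 (log2 fold change −1.33, adjusted p = 0.0266) and Abcb1b (−3.02, adjusted p = 0.0380), and Abcc4 was not (−0.36, adjusted p = 0.155).

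Among the members named with full values, the log2 fold changes that changed sign belonged to genes that were not called under any alternative. Abcb8 was 0.014 and 0.015 with limma (pseudocounts 1 and 0.1), Abcc5 was −0.015 with the block, −7.7e-05 in the libraries numbered below 200 and −0.062 to 0.059 with 1 library left out, and Abcf2 was −0.0011 with DESeq2, −0.00095 with DESeq2's size factors, −0.015 in the libraries numbered below 200 and −0.032 to 0.068 with 1 left out. With 1 library left out, Abcf1 was −0.051 to 0.0045 and Abcg1 −0.20 to 0.055. Members outside that set changed sign too, such as Abcb5 at −1.15 to 1.38 with 1 library left out. The cause of these changes was not tested. Members at few counts, and groups of 4 and 5 ovaries, limit what could be detected.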
